A study of Drosophila melanogaster with 3 samples.

Results

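The genes described here encode the large heat shock proteins of Drosophila melanogaster and their cognates, which are made without heat. They were chosen by symbol in the Release 6 annotation and number 10 of 13968 protein-coding genes: 6 cognate genes (Hsc70-1, Hsc70-2, Hsc70-3, Hsc70-4, Hsc70-5 and Hsc70Cb) and 4 heat-inducible genes (Hsp83, Hsp68, Hsp70Aa and Hsp70Ab). Hsc70Cb was found under its current symbol, Hsp110. The series mapped su(Hw), a zinc finger protein of chromatin insulators, by chromatin immunoprecipitation and sequencing (ChIP-seq). All 3 samples belong to 1 group, biological replicates of whole embryos aged 0 to 24 hours, with males and females pooled. The embryos came from 1 transgenic line whose su(Hw) carries GFP at its C terminus, and chromatin was pulled down through that tag, although another label lists the antibody as su(Hw). The labels name no heat treatment, and there was no contrast between conditions. Whole embryos mix cell types and stages, so a peak cannot be placed in any one of them, and peak lists hold no expression values by which the stage could be checked against marker genes.

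The Hsp70 family are chaperones that bind unfolded stretches of protein and release them through a cycle of ATP hydrolysis. The cognate members run this cycle in unstressed cells, Hsc70-4 in the cytosol, Hsc70-3 (the fly BiP) in the endoplasmic reticulum and Hsc70-5 in mitochondria, while Hsc70Cb belongs to the Hsp110 branch, which exchanges the nucleotide of Hsp70 partners. Hsp70Aa, Hsp70Ab and Hsp68 are switched on by heat through the heat shock factor, which binds heat shock elements of alternating GAA and TTC units. Hsp83, the cytosolic Hsp90 of the fly, is made in unstressed cells and rises further with heat. The Hsp70Aa and Hsp70Ab pair at cytological position 87A is a textbook locus of insulator biology: the boundary elements scs and scs' were found on its sides, and the protein BEAF-32 binds CGATA clusters in scs'.

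Sequences were chosen to show what lay under or beside the peaks at these genes, in dm6 coordinates on the strand stated and read 5' to 3'. Capitals mark CGATA (the BEAF-32 core) in either orientation in the CG3281-aurA, Hsp83 upstream and Hsp68-SMC1 sequences. In the Hsp83 intron they mark TGCATA, the core of the su(Hw) motif. The CG3281-aurA sequence (chr3R:11962884-11963123, plus strand) is 240 bp of the 524 bp peak nearest to the Hsp70Ab gene, and ends at the aurA start. It holds 5 of the 8 CGATA of that peak. The Hsp83 upstream sequence (chr3L:3192769-3192968, plus strand) ends at the gene start beside the strongest peak of the group, and its CGATA letters lay outside the peak interval. The Hsp83 intron summit (chr3L:3194188-3194348, plus strand) was the only one of the 12 summits with TGCATA within 100 bp. The Hsp68-SMC1 summit (chr3R:24058134-24058286, minus strand) just missed the thresholded list.
CG3281-aurA peak: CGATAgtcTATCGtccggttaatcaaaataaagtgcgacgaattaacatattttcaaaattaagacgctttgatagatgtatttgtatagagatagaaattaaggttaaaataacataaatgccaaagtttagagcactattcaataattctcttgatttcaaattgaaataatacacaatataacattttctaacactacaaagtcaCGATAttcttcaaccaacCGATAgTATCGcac
Hsp83 upstream: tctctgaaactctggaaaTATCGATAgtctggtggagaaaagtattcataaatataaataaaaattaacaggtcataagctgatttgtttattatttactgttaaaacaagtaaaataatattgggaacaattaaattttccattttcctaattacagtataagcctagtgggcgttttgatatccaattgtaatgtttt
Hsp83 intron summit: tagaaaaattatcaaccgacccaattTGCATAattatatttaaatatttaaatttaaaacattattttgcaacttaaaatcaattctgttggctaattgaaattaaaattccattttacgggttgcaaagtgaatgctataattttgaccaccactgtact
Hsp68-SMC1 summit: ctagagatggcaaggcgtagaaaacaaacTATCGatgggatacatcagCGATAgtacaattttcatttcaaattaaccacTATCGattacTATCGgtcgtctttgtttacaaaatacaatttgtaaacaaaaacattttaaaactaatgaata

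Promoter sequences of heat-inducible genes are shown for comparison with the cognate genes. Those had no exact heat shock element from 250 bp before to 50 bp after the gene start. Capitals mark 3 or more alternating GAA and TTC units spaced 2 bases apart, and in Hsp70Aa also GAGAG, the repeat bound by the GAGA factor, in either orientation. The Hsp68 upstream sequence (chr3R:24057311-24057510, minus strand) and the Hsp70Aa upstream sequence (chr3R:11956545-11956744, minus strand) both end at the annotated gene start. The sequence upstream of Hsp70Ab matched that of Hsp70Aa at 199 of 199 aligned bases and is not repeated. The Hsc70-4 summit (chr3R:15242421-15242581, plus strand) holds none of these motifs and is shown as a cognate promoter peak for contrast.
Hsp68 upstream: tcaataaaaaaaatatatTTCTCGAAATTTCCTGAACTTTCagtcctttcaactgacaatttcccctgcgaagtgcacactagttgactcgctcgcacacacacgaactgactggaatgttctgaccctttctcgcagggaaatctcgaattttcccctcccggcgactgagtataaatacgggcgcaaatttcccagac
Hsp70Aa upstream: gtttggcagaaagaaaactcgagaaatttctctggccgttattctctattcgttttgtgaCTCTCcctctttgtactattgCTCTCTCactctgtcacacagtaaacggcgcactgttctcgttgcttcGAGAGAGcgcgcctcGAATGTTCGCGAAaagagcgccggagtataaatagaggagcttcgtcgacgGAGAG
Hsc70-4 summit: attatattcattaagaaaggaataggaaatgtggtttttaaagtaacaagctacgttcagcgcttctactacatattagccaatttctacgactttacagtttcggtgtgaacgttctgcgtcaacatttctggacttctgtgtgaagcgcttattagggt

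The deposited lists give each peak a summit and a signal, which is the authors' own value on a scale the files do not define and serves here only to rank peaks within a list. The thresholded list, which the authors filtered by reproducibility, held 6127 peaks with signals from 236 to 20808. These were the 6127 strongest of a pooled list of 30000 peaks. Each replicate list also held 30000 peaks, so its length says nothing of depth, and the number of reads is not given in the sources used here. Replicates 1 and 2 shared the interval and summit of 561 peaks, but 0 of these had the same signal, and the other replicate pairs shared 0. A summit counted as top-ranked in a replicate when a summit among its 6127 strongest lay within 200 bp.

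Of the 10 genes, 6 had a thresholded su(Hw)-eGFP summit in the gene body or within 5 kb, namely Hsc70-2, Hsc70-3, Hsc70-4, Hsc70-5, Hsp83 and Hsp70Ab. Across all protein-coding genes 59.2% did, and across the 4100 genes between 2231 and 6668 bp long, the span of the 10 lengths, 62.3% did. Within 1 kb the count was 4 of 10, against 37.1% of all genes. The promoter window, from 1000 bp before to 100 bp after an annotated start, held a summit in 4 of 10 genes (Hsc70-3, Hsc70-4, Hsc70-5 and Hsp83), against 26.4%. With weaker pooled peaks included, 9 of 10 genes had a summit within 5 kb, against 82.2%. The shares at 5 kb and for pooled peaks were thus near those of all genes. There was no replicate error for these counts, since all came from 1 list, and no test was made.

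Among the cognate genes 4 of 6 had a thresholded summit within 5 kb, and among the inducible genes 2 of 4. The promoter window was occupied in 3 of 6 cognate genes and 1 of 4 inducible genes. Counts this small cannot separate the 2 kinds, and no test was made between them. The cognate count was 2 of 6 when thresholded peaks had to be top-ranked in all 3 replicates, a filter under which the share of all genes also fell, to 48.9%. It was 2 as well when any 1 replicate was left out of that requirement (51.4% to 52.1% of all genes). Hsc70-2 and Hsc70-3 were the genes that dropped out. The inducible count fell to 1 of 3 without Hsp83.

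**Figure D1:**
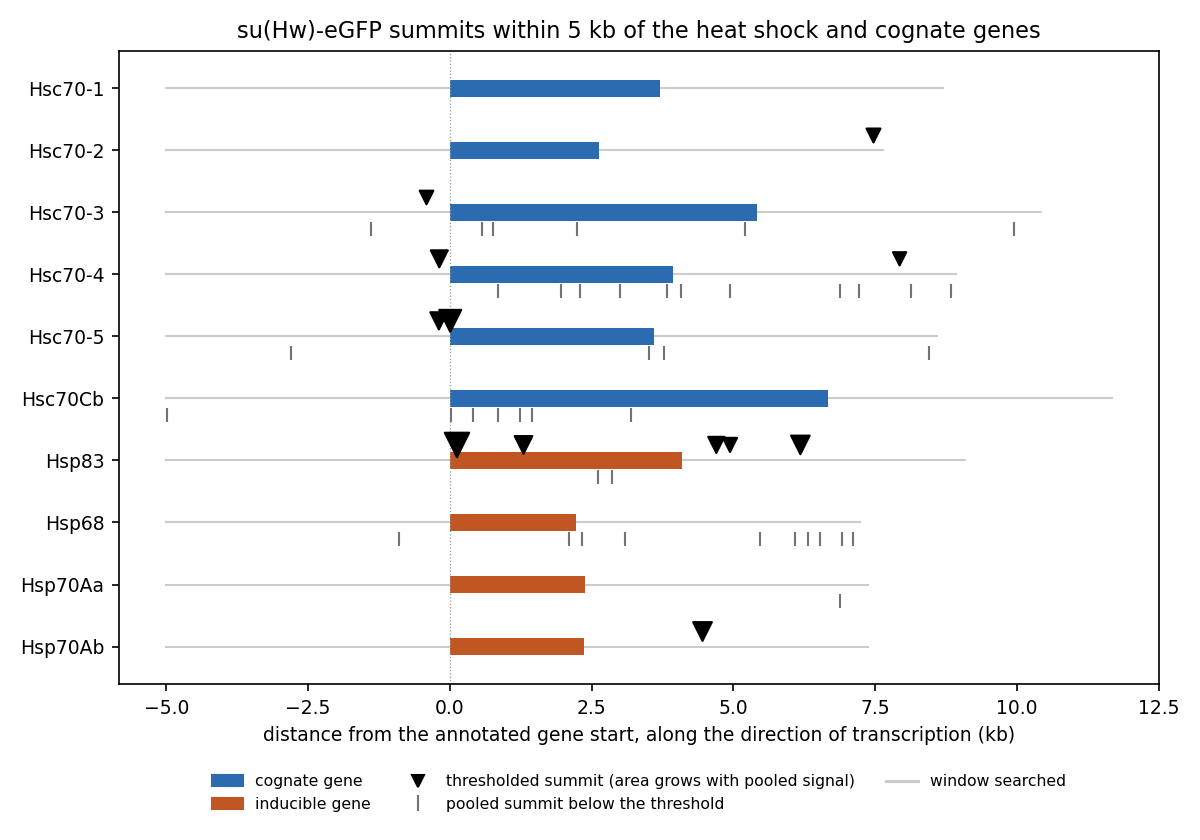
Position of su(Hw)-eGFP summits at the 10 genes, each drawn from its annotated start along the direction of transcription in kb, with cognate genes in blue and inducible genes in orange. Triangles are the thresholded summits, their area growing with pooled signal, ticks are pooled summits below the threshold, and thin lines are the windows searched; Hsp83 carried 5 of the 12 thresholded summits and Hsc70-1 had none of either kind.

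Hsp83 (3L, 3192969 to 3197059, plus strand) carried 5 of the 12 thresholded summits. Of all genes 3.17% had 5 or more in such a window, a cut set at the Hsp83 value after it was seen. With summits within 500 bp merged Hsp83 had 4, and 3.49% of all genes had as many. The mean was 1.2 summits per gene both for the 10 genes and for all genes. The strongest summit of the whole group lay 126 bp inside the gene, in the promoter window shared with the divergent gene CG14965, whose start lies 478 bp from that of Hsp83. Its pooled signal was 1020, rank 993 of 6127. Its ranks in replicates 1, 2 and 3 were 814, 1639 and 920, with replicate signals of 324, 174 and 529. All 3 replicates thus placed it among their stronger peaks, replicate 2 lowest.

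The second Hsp83 summit lay in an intron, 1299 bp from the gene start, with a signal of 498 and rank 2316. Its replicate ranks were 3779, 2008 and 2124, replicate 1 the lowest. This is the summit with TGCATA shown above. The other 3 lay past the 3' end of Hsp83 at other genes: at 609 and 850 bp past the end in the promoter window of CG14966 (ranks 3063 and 4700), and at 2091 bp in the promoter windows of CG32276 and gry (rank 2012). The pair at CG14966 matched 1 and the same summit of replicate 2, at rank 2512. All 5 were top-ranked in all 3 replicates.

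Hsc70-5 (2R, 14252598 to 14256192, minus strand) encodes the mitochondrial Hsp70 and had a pair of summits at its start. It is divergent from CG8531, with 301 bp between the starts, and both summits lay in the promoter windows of both genes. The stronger lay 7 bp inside the gene, with a signal of 812 and rank 1282. Its replicate ranks, 1348, 1418 and 1205, lay closer together than those of the Hsp83 promoter summit. The weaker, 193 bp upstream, had a signal of 467 and rank 2543, with replicate ranks of 1348, 3506 and 2765. In replicate 1 both matched a single summit, so that replicate does not separate them.

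Hsc70-4 (3R, 15242687 to 15246614, plus strand) is the main cytosolic cognate. It shares a divergent promoter with tefu, the fly ATM kinase gene, with 451 bp between the starts. A summit 186 bp upstream had a signal of 454 and rank 2631, with replicate ranks of 1822, 2188 and 4000. It was top-ranked in each replicate. Its signals there were 168, 139 and 165, in lists whose median signals were 35.2, 34.8 and 56.9, so they do not compare across replicates. The second summit, 4003 bp past the gene in an intron of CG42404, was weak, with rank 5840 and replicate ranks of 4640, 15958 and 5129. Replicate 2 thus held it far below the top-ranked part of its list.

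Hsc70-3 (X, 11801696 to 11807117, minus strand) had a summit 422 bp upstream, in its own promoter window and no other. Its signal was 264 and its rank 5327. The replicate ranks were 11170, 7582 and 4487, so replicate 3 alone had it top-ranked. Among the occupied promoters it was the weakest and the least repeatable by rank.

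Hsc70-2 (3R, 13044759 to 13047388, plus strand) had its summit 4833 bp past the gene, just inside the 5 kb limit. It lay in the promoter windows of CG7966 and pic, the latter the fly DDB1 gene. The signal was 278 and the rank 4989. The replicate ranks were 11078, 4086 and 6356, with replicate 2 alone top-ranked. This count therefore turns on the window width and on another gene's promoter.

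Hsp70Aa (3R, 11954163 to 11956544, minus strand) and Hsp70Ab (3R, 11958535 to 11960909, plus strand) stand head to head with 1990 bp between them. No pooled summit, strong or weak, lay in either body or between the genes. The CG3281 and aurA promoters, where scs' was mapped, held a summit 2079 bp past the end of Hsp70Ab and 6444 bp from Hsp70Aa. Its signal was 569 and its rank 1965, with replicate ranks of 2189, 2828 and 1890. It was top-ranked in all 3 replicates. Its interval of 524 bp held 8 CGATA, counting either strand, the nearest 94 bp from the summit. Of all thresholded peak intervals 18 of 6127 (0.294%) held 8 or more, with a median of 0, though this count was chosen after its value was seen. The interval of a weak peak at the Hsc70Cb start, at pooled rank 13987, held 9, the nearest 33 bp from its summit.

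The other side of the pair differed. There the only summit lay 4491 bp past Hsp70Aa, at the CG31211 and Cad87A promoters. It was below the threshold, with a signal of 126.5 and replicate ranks of 10249, 10789 and 17764. It was not top-ranked in any replicate, whereas the aurA side was in each.

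**Figure D2:**
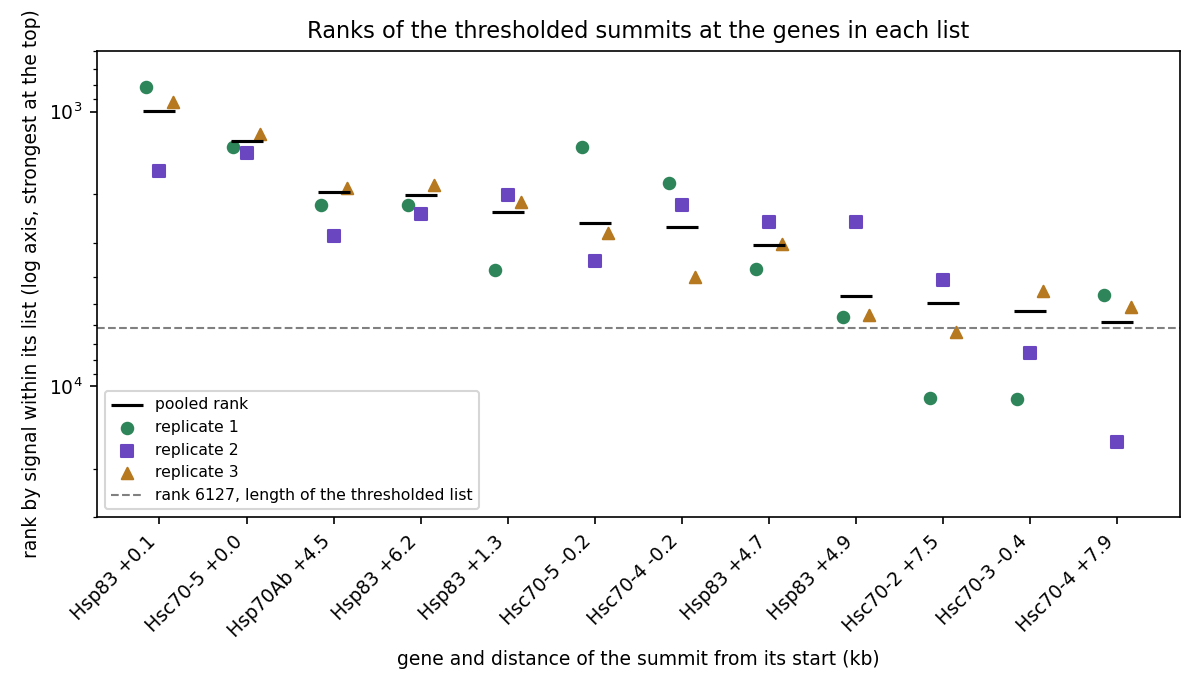
Rank by signal of each of the 12 thresholded summits in the pooled list (bars) and in replicates 1, 2 and 3 (symbols), on a log axis with the strongest at the top; each summit is named by its gene and its distance in kb from the gene start. The dashed line is rank 6127, below which 3 of the 12 summits have at least 1 replicate.

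Ordered by the strongest summit, the genes ran from Hsp83 (replicate ranks 814 to 1639) and Hsc70-5 (1205 to 1418) through Hsp70Ab (1890 to 2828) and Hsc70-4 (1822 to 4000) to Hsc70-2 (4086 to 11078) and Hsc70-3 (4487 to 11170). The ranges of Hsp83 and Hsc70-5 overlapped, as did those of Hsp70Ab and Hsc70-4 and those of Hsc70-2 and Hsc70-3. Hsc70-5 and Hsp70Ab did not overlap, nor did Hsc70-4 and Hsc70-2, whose nearest ranks were 4000 and 4086. Across the 12 summits the median rank was 2587, against 3064 for the whole list, and the median signal 460, against 405. All 12 had a summit in all 3 whole replicate lists, as had 97.2% of thresholded peaks, and 9 of 12 were top-ranked in all 3, against 69.3%.

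The 12 summits lay mostly at promoters, of these genes or of neighbours. A promoter window of some gene held 10 of 12, against 50.9% of all thresholded summits, and 7 of 12 lay in the windows of 2 or more genes, against 20.9%. The remaining 2 were intronic, and 0 were in coding exons or intergenic. The 12 were chosen for lying in or within 5 kb of a protein-coding gene, so each window searched holds a gene start. The whole list was not chosen in this way, and the part of this choice in the higher shares was not tested. The summits of 1 gene are not independent of each other, so the 12 were not tested as a sample.

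Within 100 bp, 0 of the 12 summits held the su(Hw) 12-base consensus at up to 1 mismatch, against 21.6% of all thresholded summits and 11.5% of those at promoters. At 200 bp the Hsc70-4 promoter summit had 1, centred at -120.5 bp. TGCATA was found at 1 of 12 (23.5% of all) and GAGAG at 3 of 12 (21.1%). A pair of CGATA within 40 bp, overlapping matches included, was found at 0 (8.86%), and an exact heat shock element at 0 (0.261%). An absent match says only that these letters are not in this window.

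Exact heat shock elements were sought from 250 bp before to 50 bp after the gene start. A match was found in 3 of 4 inducible genes (Hsp68, Hsp70Aa and Hsp70Ab) and in 0 of 6 cognate genes, against 0.43% of all promoters. Only the upstream end of each annotated gene was taken as its start. Other annotated starts, as at Hsp83, and imperfect elements were not searched, so a missing match does not mean a missing element. None of Hsp68, Hsp70Aa and Hsp70Ab had a thresholded summit in its promoter window, where 26.4% of all genes did. The Hsp68 window held a pooled summit just below the threshold, at rank 6202. The Hsp70Aa and Hsp70Ab windows are only partly unique in the genome (64.1% and 59.9% of 32-base stretches). GAGAG was found at Hsc70-2, Hsc70-3, Hsp70Aa and Hsp70Ab (29.7% of all promoters), a pair of CGATA at Hsc70Cb and Hsp83 (19.3%) and TGCATA at Hsp68 (15.4%). Overlapping CGATA matches on opposite strands counted as a pair, also in the share of all promoters. In the Hsp83 upstream sequence shown, the 2 matches overlap in TATCGATA and are not separate sites. The su(Hw) consensus at up to 1 mismatch was at 0 of the 10, against 7.95%. A match is a description of the sequence, not of binding.

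Hsp68, Hsc70Cb, Hsp70Aa and Hsc70-1 had no thresholded summit within 5 kb. At Hsp68 (3R, 24055080 to 24057310, minus strand) a summit 904 bp upstream, at the promoter shared with the cohesin gene SMC1, had rank 6202 in the pooled list, just below the 6127 kept. Its signal was 234.5, against 236 for the weakest peak kept, and its replicate ranks were 5047, 5606 and 7635. At Hsc70Cb (3L, 14037019 to 14043686, plus strand) a summit at the gene start had rank 13987 and no match in replicate 3. Stronger summits lay in an intron, 1244 and 1445 bp from the start, at ranks 6941 and 8208. Their replicate ranks were 24980, 5475 and 5379, and 14083, 12932 and 5379. The nearest thresholded summit to Hsc70Cb lay 5193 bp away at the CG6650 and endos promoters, rank 3332, just outside the limit. A weaker summit at the same promoters, 4992 bp away and at pooled rank 6452, had replicate ranks of 3271, 4170 and 4499. A replicate summit between them could match both, so these ranks may be those of the stronger neighbour.

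Hsc70-1 (3L, 13974061 to 13977761, plus strand) was the emptiest locus, with 0 pooled summits within 5 kb and the nearest thresholded one 9223 bp away at rank 5653. The nearest to Hsp68 lay 6938 bp away, at rank 3751. By 7500 bp 9 of 10 genes were reached, against 67.2% of all genes, and by 10 kb all 10, against 72.8%. At 3 kb the count was 5 of 10, against 50.2%. The choice of 5 kb therefore sets which genes are counted.

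**Figure D3:**
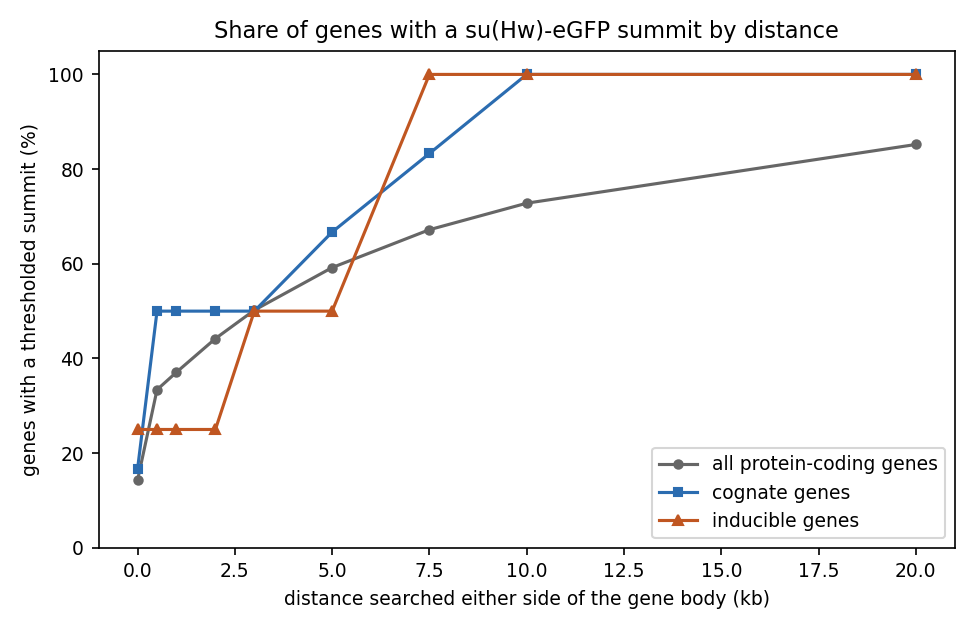
Percent of genes with a thresholded summit (vertical axis) by the distance searched either side of the gene body in kb (horizontal axis), for all 13968 protein-coding genes (grey), the 6 cognate genes (blue) and the 4 inducible genes (orange). Both small groups cross the grey line more than once, and both reach 100% at 10 kb, where all genes stand at 72.8%.

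Weaker peaks were spread unevenly. Below the threshold, 41 pooled summits lay within 5 kb of the genes, at pooled ranks from 6202 to 27028. Hsc70-4 had 11 and Hsp68 10, while Hsc70-1, Hsc70-2 and Hsp70Ab had 0. Of the 41, 1 was top-ranked in all 3 replicates, against 0.821% of all 23873 pooled summits below the threshold. It was the summit at the CG6650 and endos promoters, whose matches may be those of its stronger neighbour. In all 3 whole lists 17 had a match, against 35.2%. Coding exons held 8 of the 41, against 6.82%, and promoter windows 16, against 26.4%. Like the thresholded summits, the 41 were chosen for lying in or near genes, and the part of this choice in these shares was not tested.

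The Hsp70 copies pose a limit that the other genes do not. Hsp70Aa and Hsp70Ab were identical at 2374 of 2375 aligned bases of the gene body. Of the 32-base windows in their bodies, 1.11% and 0.811% occurred once in the genome. For Hsp83 this was 94.7%, and for the other 7 genes at least 99.8%. Their promoter windows were 64.1% and 59.9% unique. The interval of each of the 12 thresholded peaks was 100% unique. How the authors treated reads that map to several places is not given in the sources used here, and its part in the empty Hsp70Aa and Hsp70Ab bodies was not tested. For those bodies, and in part for the promoter windows, an absent summit is therefore no measurement of absent binding.

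**Figure D4:**
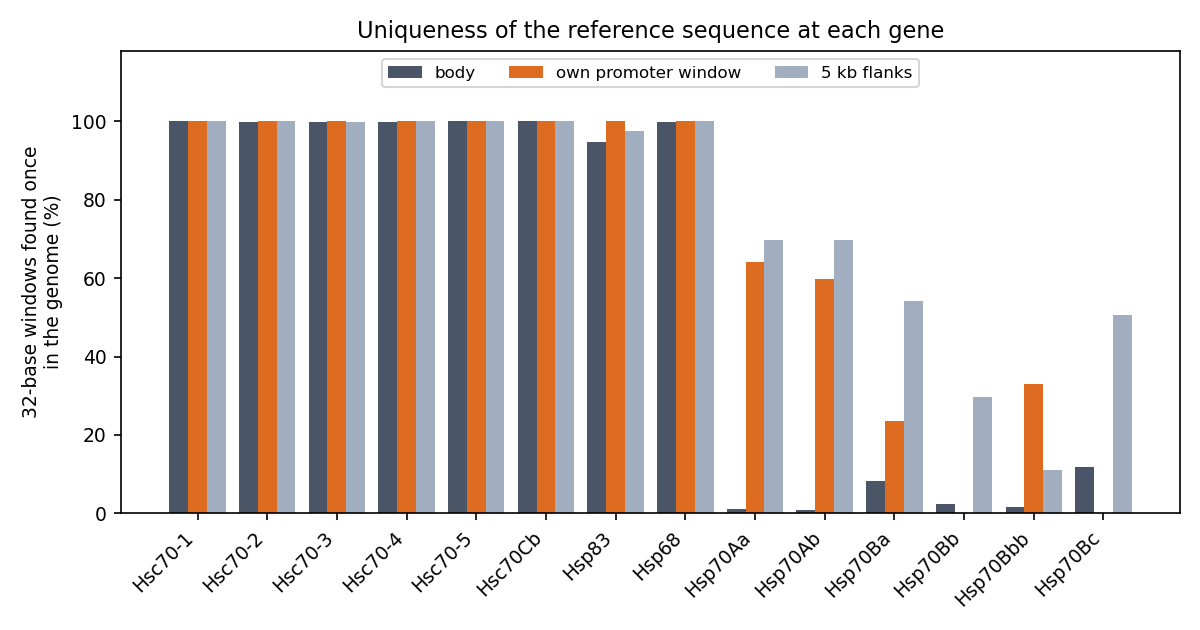
Percent of 32-base reference windows found once in the genome, in the body, the promoter window and the 5 kb flanks of the 10 genes and the 4 Hsp70B copies. Bars near 100% are loci that short reads can place; the body bars of the 6 Hsp70 copies reach at most 11.7%.

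The wider chaperone network was described from lists of relatives and partners. The 4 Hsp70B copies at 87C (Hsp70Ba, Hsp70Bb, Hsp70Bbb and Hsp70Bc) had 0 thresholded summits within 5 kb, the nearest 16273 bp away, and their bodies were 1.73% to 11.7% unique. Their flanks were 11% to 54.2% unique and their promoter windows 0% to 33%, so the 0 covers sequence that short reads can place only in part. Of the other Hsp90 proteins, mitochondrial Trap1 had a weak summit at the promoter it shares with Bap170 (rank 5829), and Gp93 of the endoplasmic reticulum had none. The 12 chaperonin genes had a summit in 7 cases, and 3 had one in their own promoter window. The strongest lay 4388 bp from CCT7 at the CG9837 promoter (rank 1882) and 4623 bp from CCT1 in an exon (2236), and those of CCT8 (2810) and CCT3 (3712) lay at their own promoters. These shares stand beside 59.2% and 26.4% of all genes.

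Cochaperones, which steer Hsp70 and Hsp90, and the heat shock factor gene had a summit within 5 kb in 17 of 20 cases. Across all genes 59.2% did. In 13 cases a summit lay in the gene's own promoter window, against 26.4% of all genes. These shares were not matched for gene length or number of annotated starts, whose part was not tested. The strongest lay 209 bp from Tpr2 (rank 73), 2597 bp from Roe1 at the CG13334 promoter (167), 4619 bp from CG5504 at the CG46429 and Sesn promoters (670) and 984 bp from Dpit47 at its own promoter (678), and the nearest to Hsf lay 4396 bp away at other genes' promoters (3560). Among the small heat shock genes, 8 of 8 matched genes had a summit within 5 kb, beside the same 59.2%. Neighbours share summits: Hsp23, Hsp27 and Hsp67Ba share that of rank 945 at the Hsp27 promoter, while Hsp26, Hsp22 and CG4456 share that of rank 2767 at the Hsp26 promoter. All of the small heat shock genes matched, except l(2)efl, lay in a single stretch of 3L from 9371511 to 9385694, with overlapping windows. The 8 of 8 therefore does not count 8 separate places, and nothing was tested.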

How the data were processed

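The authors deposited ENCODE peak lists in 2 builds. The dm6 lists were used, on the Release 6 genome (Ensembl 115 genes), and the dm3 lists were not. The signal per peak is the authors' deposited value, with no scale given, and the deposited significance column holds −log10 q-values, which saturate and so were not used to rank. The aligner, caller, threshold and read number were not given in the sources used here. The control that the labels list was not used here. Summits were matched within 200 bp, motifs sought within 100 bp on both strands and coordinates given 1-based. Python 3.11.15, numpy 2.4.6, pandas 2.3.3, biopython 1.88 and matplotlib 3.10.9 were used. Summit matching was checked on shifted copies of the thresholded peaks and the motif search on planted motifs. The counts by window, class and merging were not checked in this way. The text names the 10 genes, the genes whose promoter or body holds their summits and up to 4 genes of each chaperone list by strongest summit. Endos, CG6650, SMC1, Cad87A, CG31211, Hsf, Gp93, Hsp22 and CG4456 fell outside that rule and were picked with their values in view. Members and lists were chosen with earlier results of these data known. The symbol Hsp67a was not matched. Alternatives changed the flank, peak set, interval rule, matching distance, motif and promoter windows and merging of summits, and left out each replicate.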

Additional observations from a re-analysis of the deposited data

How the results depend on the processing

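Of 85 alternative values over 18 settings, 67 stayed within 1.5 times the reported count and 18 moved further. Some of the 67 were fixed in advance. The consensus count of 0 must stay 0 in any subset of the peaks or under a stricter motif rule. The 9 summits top-ranked in all 3 replicates pass every top-ranked filter by definition. The 67 are therefore no measure of stability. With 1 kb flanks the inducible count was 1. With 10 kb flanks there were 10 genes with a summit, 21 summits, 4 inducible genes, 16 top-ranked summits, 2 with the su(Hw) consensus and 19 at promoters. Using all peaks of the pooled list gave 53 summits, 4 inducible genes, 5 summits with the consensus and 26 at promoters. The cognate count was 2 with the 3063 strongest peaks (39.3% of all genes) and with peaks top-ranked in all 3 replicates (48.9%), and 2 to 2 when each replicate was left out in turn. As the thresholded list itself came from all 3 replicates, leaving one out means keeping peaks top-ranked in the other two, and 51.4% to 52.1% of all genes then had a summit. Searching 200 bp for motifs gave 1 summit with the consensus, and leaving out Hsp83 gave 1 inducible gene. No paired analysis was possible because there is 1 group and no contrast. With unknown depth no interval or floor could be given, and a missing summit is not evidence of no binding.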
